A study of Saccharomyces cerevisiae with 12 samples.

Results

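The respiratory chain and ATP synthase genes described here are 42 nuclear genes, chosen by name as subunits of the NADH dehydrogenases, succinate dehydrogenase, the cytochrome bc1 complex, cytochrome c, cytochrome c oxidase and the ATP synthase, out of 5449 Saccharomyces cerevisiae genes with a probe set of their own on the array. Each of the 42 was read by 1 probe set that is not shared with another gene. RNA was read on 12 Affymetrix arrays of 1 colour, each from 1 culture in medium with 4% xylose, started at an optical density of 0.1, shaken at 200 rpm and 35 °C and collected at 25 h. A parental strain (n = 2 cultures) was set beside an evolved strain (n = 2) and homozygotes that came from the evolved strain (n = 8 strains, 1 culture each). The labels name the strains only as parental, evolved and homozygote, and give no genotype, ploidy, oxygen supply or genes added for xylose use, so what the groups share in genotype is not known here. A signal is an intensity per unit of labelled RNA from a whole culture, so fewer cells that use a gene and less of its RNA per cell cannot be told apart.

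Respiration in yeast passes electrons from NADH and succinate through ubiquinone, the bc1 complex (complex III), cytochrome c and cytochrome c oxidase (complex IV) to oxygen, and the proton gradient made on the way drives the ATP synthase (complex V). Baker's yeast has no proton-pumping complex I. Its place is taken by single-polypeptide NADH dehydrogenases on the inner and outer faces of the inner membrane. Many of these nuclear genes are activated by the haem-dependent regulators Hap1 and Hap2/3/4/5 and are repressed by glucose. A few have isoforms, such as COX5A and COX5B, that are used with plentiful or scarce oxygen.

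Background was taken on each array from S. pombe probe sets and came to 18.7 to 19.6 intensity units. All 42 genes exceeded it on all 12 arrays, by at least 10.2-fold. Their mean signals ran from 221 to 8593 intensity units, with a median of 3978 against 515 over all genes tested. The median gene was exceeded by 41 of the 42. They lie on 14 chromosomes, and none is on chromosome I, where 66 of 81 genes tested were lower and 3 higher in homozygotes. The parental arrays stood apart from each other. They differed by a median of 0.22 on the log2 scale and at least 2-fold in 102 genes, against 0.08 to 0.18 and 0 to 91 genes between pairs of homozygotes. The evolved arrays differed by 0.06, less than any other pair, and it is not known here whether they hold the variation of separate cultures. Probe sets for 18S and 25S rRNA were 0.35 lower on the log2 scale in homozygotes than in parental arrays (11.68 ± 0.12 against 12.03 ± 0.02, SD, n = 8 and 2, two-sided exact permutation p = 0.0222, which is the lowest this number of arrays can give). Across 7 control transcripts, the ratio of the 3' to the 5' probe set was 1.295 ± 0.08 in homozygotes and 1.34 ± 0.03 in parental arrays on the log2 scale (two-sided exact permutation p = 0.422). Control probe sets named RIP1 were left out of this ratio. Their 3' set read below their 5' set on all 12 arrays, as with 1388 against 2677 on parental array 1. The part of these RNA measures in the results below was not tested.

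The question set by the design was how the homozygotes differed from the parental strain. In complexes III and IV with cytochrome c, 12 of 20 subunit genes were higher in homozygotes, where 13.2% of all genes tested were. They were led by COX5B at 1.56-fold and COX7 at 1.39-fold, while 12 of 15 ATP synthase genes and all 3 NADH dehydrogenases did not pass the test. The size depended on the parental array, with a median log2 change over the 42 genes of 0.29 from parental array 1 alone and 0.03 from parental array 2 alone. Of the 42 genes, 16 rose and 0 fell, at an adjusted p under 0.05 by limma over all genes tested. Among all 5352 genes 13.2% rose and 18% fell. The 42 genes had higher signals and less spread among homozygotes than all genes, so these shares do not compare genes of like signal. The part of this in the counts was not tested. The median log2 change was 0.16 over the 42 genes and -0.04 over all genes, and 39 of the 42 changes were positive. Of complexes III and IV with cytochrome c, 12 of 20 genes rose (median 0.19), against 3 of 15 genes of the ATP synthase (median 0.07), 1 of 4 of complex II (median 0.25) and 0 of 3 NADH dehydrogenases (median 0.02). After quantile normalization 9 rose and 1, TIM11, fell, where 14.1% and 15.3% of all genes did. After median centring 22 rose and 0 fell, where 15.7% and 15.6% of all genes did.

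**Figure D1:**
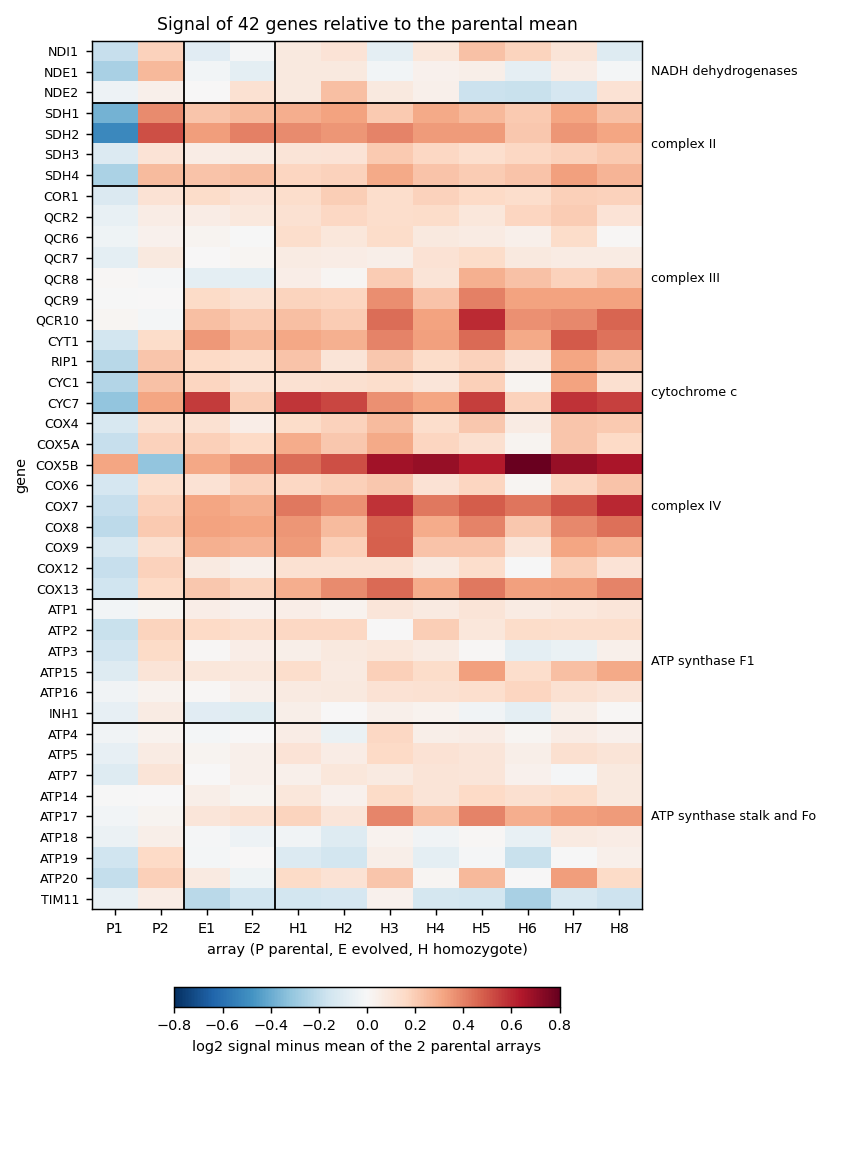
Log2 signal of each of the 42 genes (rows, by complex) on each of the 12 arrays (columns) minus the mean of the 2 parental arrays. Red is higher and blue lower than that mean. The first parental array is the lower of the pair in 39 rows, and the rows of complexes III and IV are red in all homozygotes except COX12 in homozygote 6.

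All 8 homozygotes lay above both parental arrays in 14 of the 42 genes and below both in 0. Over all genes tested the same was true of 12.5% and 18.7%. The 14 were COR1, QCR2, QCR8, QCR9, QCR10 and CYT1 of complex III, COX5B, COX7, COX8 and COX13 of complex IV, and ATP1, ATP14, ATP16 and ATP17 of the ATP synthase, and 11 of them also passed the test. In each homozygote the median of the 42 genes was above the parental mean, from 0.11 on the log2 scale in homozygote 6 to 0.19 in homozygote 7. The parental median was -0.12 in array 1 and 0.12 in array 2, so homozygotes 2 and 6, at 0.12 and 0.11, were no higher in this median than parental array 2.

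**Figure D2:**
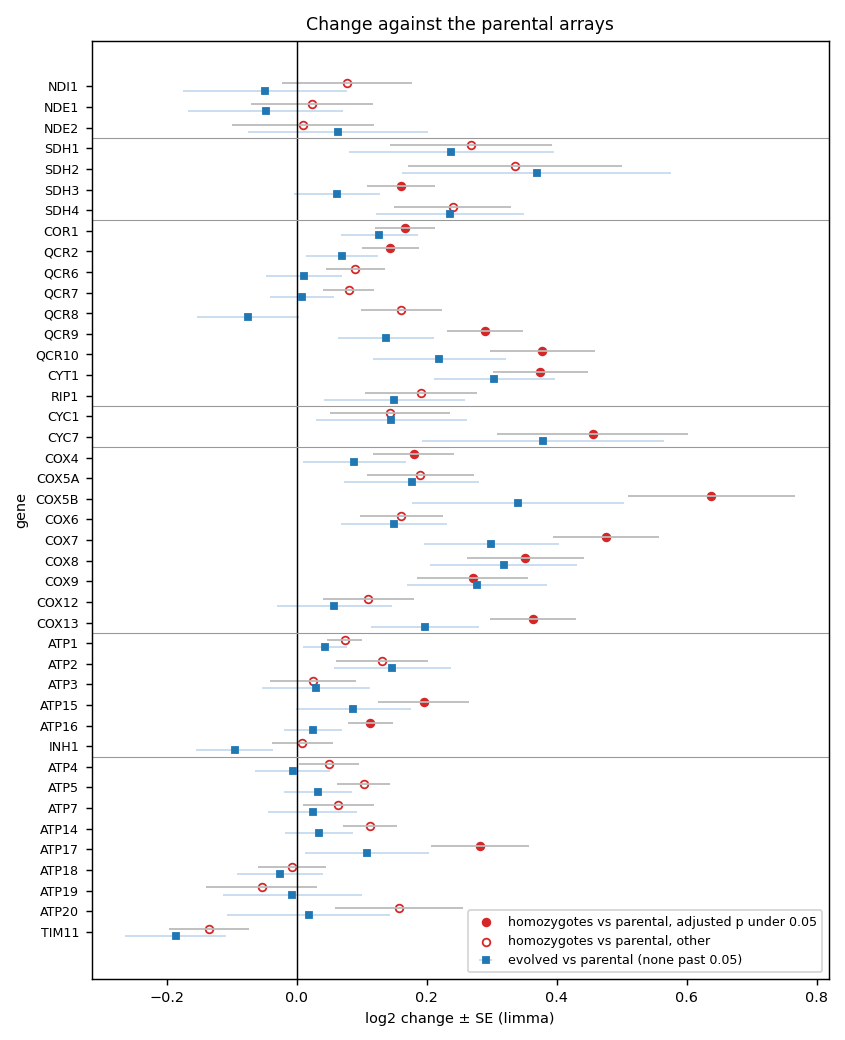
Log2 change of each gene (rows, by complex) with its SE from limma, for homozygotes (circles, filled where the adjusted p is under 0.05) and evolved arrays (squares) against the parental arrays. The 16 filled circles all lie above 0, and 12 of them belong to complexes III and IV and cytochrome c.

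Parental array 1 had a lower signal than parental array 2 in 39 of the 42 genes, and 10 of the 16 calls did not hold without array 1. The median difference was 0.25 on the log2 scale over the 42 genes and -0.01 over all genes tested. It was widest in complex II, with a median of 0.63, and cytochrome c, with 0.55, followed by the NADH dehydrogenases with 0.37 and complex IV with 0.32. In complex III it was 0.12. COX5B went the other way by 0.63, and QCR8 and QCR10 by 0.02 and 0.03. Set against parental array 1 alone, 32 of the 42 genes were higher in homozygotes and 0 lower (median change 0.29), where 13.9% of all genes were higher and 17.4% lower. Set against parental array 2 alone, 6 were higher and 1, NDE1, lower (median change 0.03), where 11.9% of all genes were higher and 14.2% lower. The count of 6 in 42 is thus close to the rate over all genes, and the higher share among the 42 was seen with parental array 1 in the fit. The 6 were QCR9, QCR10, CYT1, COX5B, COX7 and COX13, which passed the test against either parental array. The 10 that missed it without parental array 1 were SDH3, COR1, QCR2, CYC7, COX4, COX8, COX9, ATP15, ATP16 and ATP17, with log2 changes between 0.05 and 0.26 there. In the fit of 12 arrays the SE rests on a spread pooled over the groups, the distance between the parental arrays included. With 1 parental array left out, that distance is not in the spread, which then comes from the evolved and homozygote arrays only. Calls against 1 parental array thus hold no measure of the spread among parental cultures.

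**Figure D3:**
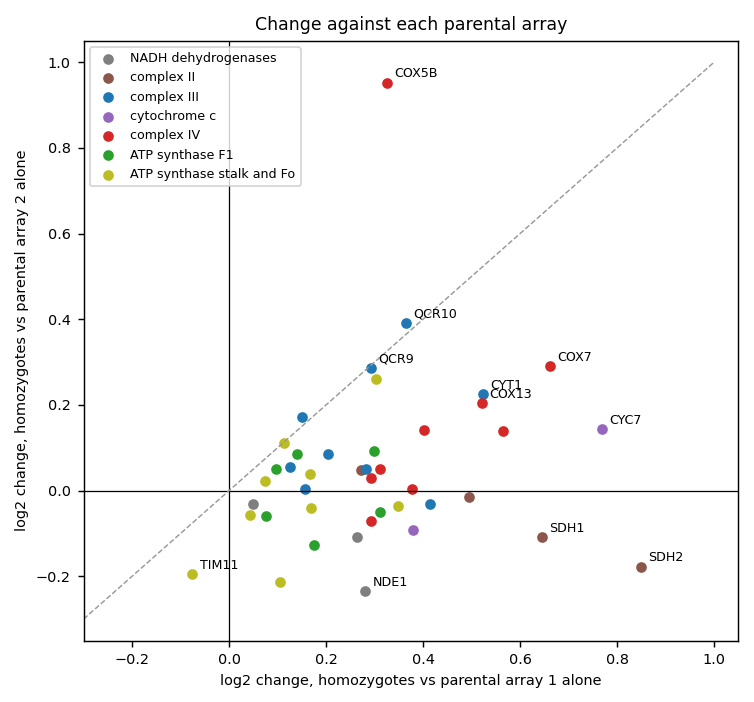
Log2 change of each gene from parental array 1 alone (horizontal axis) and from parental array 2 alone (vertical axis) to the mean of the 8 homozygotes. Points below the dashed line of equal change had a higher signal in parental array 2; QCR9 and QCR10 lie close to the line, COX5B lies above it, and SDH1 and SDH2 are above 0 on one axis and below 0 on the other.

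The NADH dehydrogenases did not pass the test in any direction. NDI1, which oxidises NADH of the matrix, was at 1572 and 2034 intensity units in parental arrays 1 and 2, at 1679.6 and 1779 in the evolved arrays, and at 1663 (lowest), 1911 (median) and 2103 (highest) in homozygotes. All homozygotes but number 5, which was higher, lay between the parental arrays (log2 change 0.08 ± 0.10, adjusted p = 0.586). NDE1, which oxidises NADH of the cytosol, was at 2135 and 3053 in the parental arrays, at 2519 and 2420 in the evolved arrays, and at 2424, 2629 and 2699 in homozygotes. All homozygotes and both evolved arrays thus lay between the parental arrays, and the log2 change was 0.28 from parental array 1 (adjusted p = 0.0083) and -0.23 from parental array 2 (adjusted p = 0.0223). NDE2, its paralog, was at 213 and 225 in the parental arrays, at 219 and 238 in the evolved arrays, and at 193, 228 and 258 in homozygotes (log2 change 0.01 ± 0.11, adjusted p = 0.960).

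Complex II, succinate dehydrogenase, links the tricarboxylic acid cycle to the chain, with the flavoprotein Sdh1, the iron-sulfur protein Sdh2 and the membrane anchors Sdh3 and Sdh4. Its genes showed the widest gap between parental arrays. SDH2 was at 1811 and 3688 in the parental arrays, at 3257 and 3419.6 in the evolved arrays, and at 2998, 3285 and 3396 in homozygotes. SDH1 was at 1886 and 3182 in the parental arrays, at 2858 and 2919.6 in the evolved arrays, and at 2831, 2968 and 3061 in homozygotes. For both genes every evolved and homozygote array lay between the parental arrays, nearer to the higher of them, and the log2 changes of 0.34 ± 0.16 and 0.27 ± 0.12 did not pass the test (adjusted p = 0.136 and 0.117). SDH3 passed it, with 3696 and 4319 in the parental arrays, 4155 and 4185 in the evolved arrays and 4285, 4481 and 4628 in homozygotes (log2 change 0.16 ± 0.05, adjusted p = 0.0341, and 0.05 without parental array 1, adjusted p = 0.536). Leaving out homozygote 3, 4 or 7 also ended the SDH3 call. SDH4 was at 0.24 ± 0.09 (adjusted p = 0.0572).

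In complex III, which passes electrons from ubiquinol to cytochrome c, 5 of 9 genes rose, where 13.2% of all genes tested did. The changes of all 9 were positive, from 0.08 to 0.38, with a median of 0.17, and 0.08 without parental array 1. QCR10, a small subunit at the edge of the complex, was at 2697 and 2645 in the parental arrays, at 3151 and 3069 in the evolved arrays, and at 3080.2, 3464 and 4037 in homozygotes. The parental arrays were close to each other and below the other 10 arrays (log2 change 0.38 ± 0.08, adjusted p = 0.0039). CYT1, cytochrome c1, was at 2994 and 3679.7 in the parental arrays, at 4220.4 and 3979 in the evolved arrays, and at 4039, 4265 and 4661 in homozygotes. It too lay above both parental arrays in all other arrays (log2 change 0.37 ± 0.07, adjusted p = 0.0022, and 0.23 without parental array 1). QCR9, another small subunit, was at 3955 and 3975 in the parental arrays, at 4402 and 4319 in the evolved arrays, and at 4473, 4946 and 5239.8 in homozygotes (log2 change 0.29 ± 0.06, adjusted p = 0.0025). The core proteins COR1 and QCR2 rose by 0.17 ± 0.05 and 0.14 ± 0.04 (adjusted p = 0.0155 and 0.0244). Without parental array 1 these changes were 0.05 and 0.08 (adjusted p = 0.352 and 0.236). Of the remaining genes, QCR6, QCR7 and QCR8 were at 0.09, 0.08 and 0.16 (adjusted p = 0.153, 0.137 and 0.0647).

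RIP1, the Rieske iron-sulfur protein, was at 3460.0 and 4707 in the parental arrays, at 4499 and 4454 in the evolved arrays, and at 4313, 4637 and 5013 in homozygotes (log2 change 0.19 ± 0.09, adjusted p = 0.105). The array also carries 3 control probe sets with RIP1 in their names, for the 3' end, the middle and the 5' end of a transcript, which the platform annotation used here does not tie to a gene. They read 1388, 1298 and 2677 on parental array 1 and 2020.4, 2409 and 3686 on parental array 2. On the evolved and homozygote arrays they read 2053 to 2462, 2255 to 2901 and 3412 to 4110.3. Parental array 1 was the lowest of the 12 arrays on each of these probe sets, as it was on the RIP1 gene probe set.

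The isoforms of cytochrome c, the soluble carrier between complexes III and IV, both had a positive change. CYC7, the isoform known for its use when oxygen is scarce, was at 1028 and 1586 in the parental arrays, at 1884 and 1464 in the evolved arrays, and at 1451, 1858 and 1904 in homozygotes. Homozygote 6 and evolved array 2 were below parental array 2. It passed the test (log2 change 0.46 ± 0.15, adjusted p = 0.0318), and was at 0.14 without parental array 1 (adjusted p = 0.531) and not past the threshold without homozygote 5. CYC1, the main aerobic isoform, was at 4061 and 5632 in the parental arrays, at 5378 and 5202 in the evolved arrays, and at 4856, 5223 and 5970.4 in homozygotes (log2 change 0.14 ± 0.09, adjusted p = 0.251). All homozygotes but number 7, which was higher, lay between the parental arrays.

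Complex IV, which reduces oxygen to water, had the most calls, with 6 of 9 genes higher and a median log2 change of 0.27. COX5B, the isoform of subunit 5 used when oxygen is scarce, was at 652 and 422 in the parental arrays, at 651 and 677 in the evolved arrays, and at 714, 829.6 and 908 in homozygotes. All homozygotes lay above all parental and evolved arrays (log2 change 0.64 ± 0.13, adjusted p = 0.0026). The change was 0.95 from parental array 2 and 0.32 from parental array 1. COX5A, the aerobic isoform, was at 4269.8 and 5526 in the parental arrays, at 5554 and 5426 in the evolved arrays, and at 4929.6, 5560.4 and 5987 in homozygotes, which overlapped the parental arrays (log2 change 0.19 ± 0.08, adjusted p = 0.0942).

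COX7, a small membrane subunit, was at 2552 and 3303 in the parental arrays, at 3614 and 3532 in the evolved arrays, and at 3737, 3983 and 4419 in homozygotes. The groups did not overlap, with homozygotes highest, evolved arrays between and parental arrays lowest (log2 change 0.48 ± 0.08, adjusted p = 0.0010, and 0.29 without parental array 1). COX13, a peripheral subunit, was at 4032 and 5028 in the parental arrays, at 5221 and 5105 in the evolved arrays, and at 5518, 5757 and 6166 in homozygotes (log2 change 0.36 ± 0.07, adjusted p = 0.0014, and 0.20 without parental array 1). The order of the groups was the same as for COX7. COX8, COX9 and COX4 rose by 0.35 ± 0.09, 0.27 ± 0.09 and 0.18 ± 0.06 (adjusted p = 0.0103, 0.0291 and 0.0421), and were at 0.14, 0.14 and 0.05 without parental array 1 (adjusted p = 0.237, 0.332 and 0.609). The COX4 call was close to the threshold, and leaving out any of homozygotes 2, 3, 4, 5, 7 and 8 also ended it. COX6 and COX12 were at 0.16 and 0.11 (adjusted p = 0.0726 and 0.247).

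**Figure D4:**
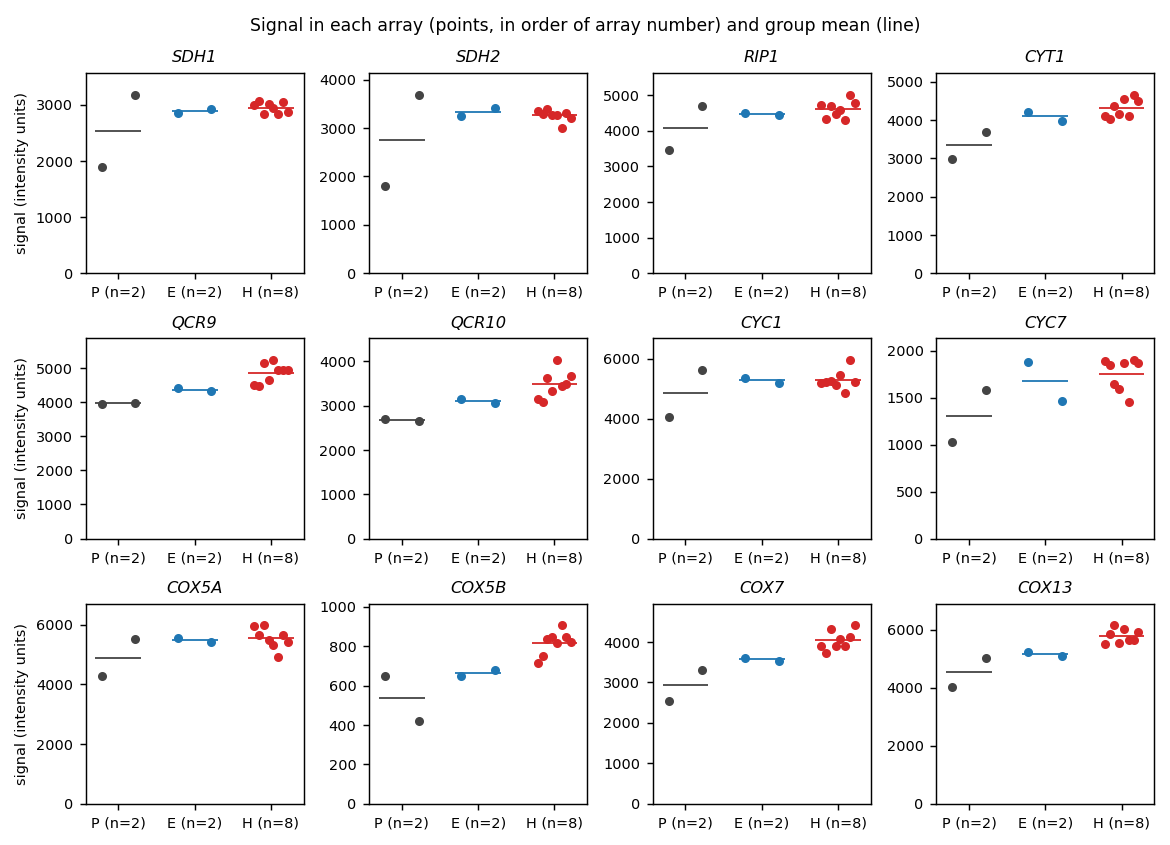
Signal in intensity units of 12 genes on each parental (P), evolved (E) and homozygote (H) array, as points in the order of the array numbers, with a line at the group mean and an axis from 0. The parental points lie far apart for SDH1, SDH2 and CYC1 and close together for QCR9 and QCR10, where all E and H points are above them.

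The isoform pairs were compared as the difference of their log2 signals within each array, which shows unequal change and not the amount of either protein. The difference CYC7 minus CYC1 was -1.98 and -1.83 in the parental arrays and ran from -1.74 to -1.45 in homozygotes. Its mean was 0.31 higher in homozygotes (two-sided exact permutation p = 0.0222, the smallest possible for 8 against 2 arrays, and 0.0667 after adjustment over the 3 pairs compared). COX5B minus COX5A was -2.71 and -3.71 in the parental arrays and -3.06 to -2.44 in homozygotes, so parental array 1 lay inside the range of the homozygotes (mean difference 0.45, exact permutation p = 0.133, adjusted p = 0.200 over the 3 pairs). NDE2 minus NDE1 differed by -0.01 (exact permutation p = 0.933). None of the 3 differences passed 0.05 after adjustment.

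The ATP synthase had a median log2 change of 0.07. In its F1 part, where ATP is made, and its inhibitor, 2 of 6 genes rose, where 13.2% of all genes tested did. ATP15, the epsilon subunit of the central stalk, was at 2908 and 3357 in the parental arrays, at 3329 and 3307 in the evolved arrays, and at 3277, 3509 and 3929 in homozygotes, and its call was close to the threshold (log2 change 0.20 ± 0.07, adjusted p = 0.0481, and 0.09 without parental array 1, adjusted p = 0.454). Leaving out an evolved array, or any of homozygotes 1, 3, 4, 5, 7 and 8, also ended the call. ATP16, the delta subunit, was at 4894 and 5081 in the parental arrays, at 5023 and 5124 in the evolved arrays, and at 5238, 5412 and 5614 in homozygotes, all above the parental arrays (log2 change 0.11 ± 0.04, adjusted p = 0.0273, and 0.09 without parental array 1, adjusted p = 0.164). The alpha subunit ATP1, the beta subunit ATP2 and the gamma subunit ATP3 were at 0.07 ± 0.03, 0.13 ± 0.07 and 0.02 ± 0.07 (adjusted p = 0.0518, 0.172 and 0.801). INH1, the protein that blocks ATP hydrolysis by F1, was at 3768 and 4135 in the parental arrays, at 3702 and 3684 in the evolved arrays, and at 3745, 3999.9 and 4081 in homozygotes (log2 change 0.01 ± 0.05, adjusted p = 0.908).

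Among the peripheral stalk and membrane genes of the ATP synthase, 1 of 9 rose (11.1%), close to the 13.2% of all genes tested. This was ATP17, the f subunit of the membrane part, at 1804 and 1857 in the parental arrays, 1956 and 1989 in the evolved arrays and 1955, 2266 and 2411 in homozygotes. All evolved and homozygote arrays were above the parental arrays (log2 change 0.28 ± 0.08, adjusted p = 0.0129, and 0.26 without parental array 1, adjusted p = 0.0698). The stalk genes ATP4, ATP5, ATP7 and ATP14 were at 0.05, 0.10, 0.06 and 0.11 (adjusted p from 0.0537 to 0.440). ATP18, ATP19 and ATP20 were at -0.01, -0.05 and 0.16 (adjusted p from 0.241 to 0.927). TIM11, subunit e, which takes part in forming dimers of the enzyme, had the lowest change of the 42, -0.14 ± 0.06 (adjusted p = 0.109). It was called lower after quantile normalization and without homozygote 3.

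Against the parental arrays, the evolved strain gave 0 calls among the 42 genes in either direction, where 3.2% of all genes rose and 5.21% fell. At an unadjusted p under 0.05, 7 of the 42 genes (16.7%) differed, against 23.9% of all genes. The median log2 change was 0.08, with 34 of 42 positive. The nearest to the threshold was CYT1, at 0.30 (adjusted p = 0.0585), followed by COX7 at 0.30 (0.0923) and COX8 at 0.32 (0.101). Against parental array 1 alone 16 genes were higher and 0 lower, where 7.53% of all genes were higher and 8.59% lower. Against parental array 2 alone 1 was higher, COX5B, and 1 lower, NDE1, where 4.32% and 6.2% of all genes were. This comparison and that of the homozygotes share the parental arrays, so their likeness is no separate evidence.

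Homozygotes were set against the evolved arrays directly, the test of whether the changes above differ. By limma 0 of the 42 genes and 0% of all 5352 genes were called. At an unadjusted p under 0.05, 8 of the 42 (19.0%) and 17.4% of all genes differed. The change was positive in 35 of the 42 genes, with a median of 0.07 against -0.01 over all genes. The largest were those of COX5B (0.30 ± 0.13, adjusted p = 0.258) and QCR8 (0.24 ± 0.06, adjusted p = 0.163). QCR8, a small subunit of complex III, was at 3930.2 and 3931 in the evolved arrays, below the parental arrays at 4173 and 4111 and below the homozygotes at 4188, 4729.8 and 5037. With array weights estimated per group, which give the close evolved arrays a weight of 3.69 against 0.98 for homozygotes and 0.29 for parental arrays, 14 of the 42 genes were higher in homozygotes than in evolved arrays and 0 lower, where 12.5% of all genes were higher and 16.4% lower. With the same weights 3 genes, COX5B, COX7 and COX13, were higher than in parental arrays and 0 lower, where 2.82% and 3.25% of all genes were.

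Among the 8 homozygotes the SD of a gene's log2 signal ran from 0.02 for ATP1 to 0.15 for NDE2. Its median was 0.06 over the 42 genes and 0.12 over all genes tested. Homozygote 6 had the lowest signal of the 8 in 18 of the 42 genes and homozygote 2 in 11. Homozygote 3 had the highest in 13, homozygote 7 in 10 and homozygote 5 in 9. The median of complex IV over its 9 genes was 0.10 above the parental mean in homozygote 6 and 0.45 in homozygote 3, with the other homozygotes between 0.22 and 0.31. COX5B had its highest signal in homozygote 6, 908, and its isoform COX5A its lowest there, 4929.6. QCR10 and QCR9 had their lowest homozygote signals in homozygote 2 and their highest in homozygote 5. The rRNA probe sets of homozygotes 5 and 6 were nearest to the parental level. Without these arrays 15 of the 42 genes were called higher, and 1433 of all 5352 genes were called in either direction. SDH3, ATP15 and ATP16 were no longer called, and COX5A and COX6 were.

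Other genes of respiration gave calls in both directions. Of 60 assembly and expression factors of complexes II to V, 6 rose and 15 fell, with a median log2 change of -0.05, against 13.2% and 18% of all genes. For cytochrome c oxidase 3 of 33 tested factors rose (9.09%) and 10 fell (30.3%), with a median of -0.04. All homozygotes lay below both parental arrays in 8 of the 33, and the same was true of 18.7% of all genes. PET309, needed to express the mitochondrial gene COX1, fell most. Its signal was 147.5 and 119.1 in the parental arrays and 51.1 to 77.8 in homozygotes (log2 change -1.07 ± 0.16, adjusted p = 0.00038). COX11, a copper insertion factor, fell by 0.61 ± 0.09 on the log2 scale (adjusted p = 0.00023), and COX10, for haem A synthesis, and SHY1, an assembly factor, were at -0.76 ± 0.18 and -0.62 ± 0.15 (adjusted p = 0.0064 and 0.0066). Without parental array 2 the latter pair were at -0.30 and -0.36 (adjusted p = 0.147 and 0.119). Without parental array 2 the list had 5 falls and 6 rises, and without parental array 1 it had 13 falls and 0 rises. For the ATP synthase 0 of 12 factors rose and 4 fell (median -0.29, and -0.15 without parental array 2). FMC1 and ATP23 were at -0.49 ± 0.09 and -0.51 ± 0.10 (adjusted p = 0.0019 for both), and ATP11, for F1 assembly, had a change of -0.53 ± 0.16 (adjusted p = 0.0227), or -0.15 with parental array 2 left out (adjusted p = 0.464).

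**Figure D5:**
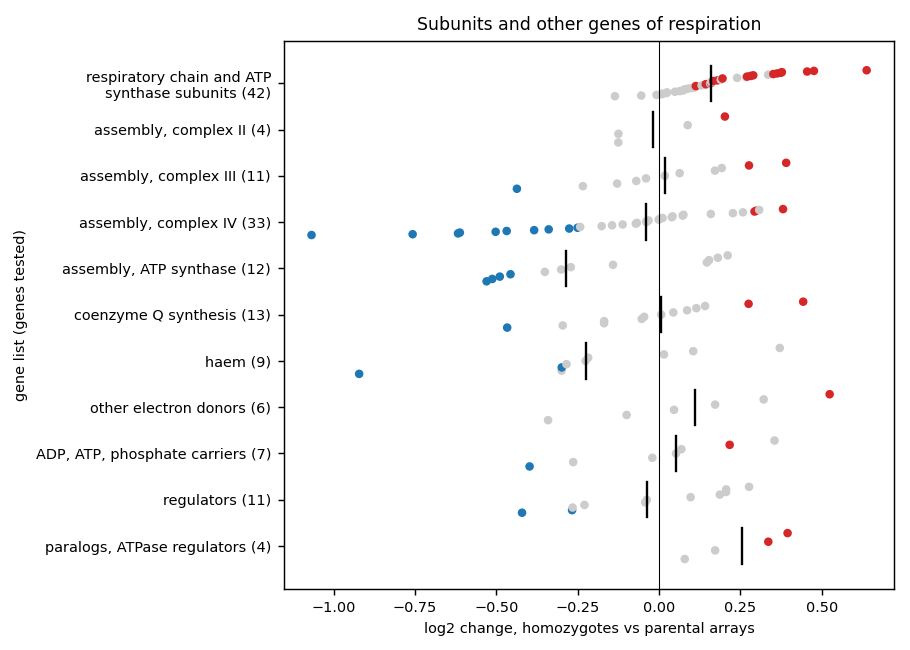
Log2 change from parental arrays to homozygotes for the 42 subunit genes and for 10 other lists of respiration genes, with 1 point per gene tested. Red points rose and blue points fell at an adjusted p under 0.05, grey points passed in neither direction, and the black line is the median of the list. The assembly lists of complex IV and the ATP synthase hold 10 and 4 blue points, and the subunits 16 red and 0 blue points.

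For complex III 2 of 11 assembly factors rose and 1 fell (median 0.02), where 13.2% of all genes rose and 18% fell. MZM1, which helps to insert the Rieske protein, fell by 0.44 ± 0.07 on the log2 scale (adjusted p = 0.0010). CBS1, for translation of cytochrome b, was at 0.39 ± 0.13 and CYT2, which attaches haem to cytochrome c1, at 0.28 ± 0.09 (adjusted p = 0.036 and 0.0346). CBS1 missed the threshold without parental array 2 (0.18, adjusted p = 0.397) and CYT2 without parental array 1 (0.13, adjusted p = 0.389). Of 4 factors for complex II, SDH7 rose by 0.20 ± 0.06 (adjusted p = 0.0273, and 0.150 without parental array 2). CYC3, which attaches haem to cytochrome c, is on chromosome I, where most genes fell. It changed by -0.92 ± 0.07 (adjusted p = 2.7e-06) and by -0.89 in the evolved arrays (adjusted p = 7.4e-05). Of the 9 genes of haem synthesis and attachment, CYC3 and HEM12 fell and 0 rose (median -0.23), and HEM12 was at -0.30 ± 0.07 (adjusted p = 0.0068, and 0.0982 without parental array 2).

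Genes that feed or serve the chain gave calls in both directions, where 13.2% of all genes rose and 18% fell. Of 13 genes of coenzyme Q synthesis 2 rose and 1 fell (median 0.01), with COQ5 at 0.28 ± 0.05 (adjusted p = 0.0018), COQ6 at 0.44 ± 0.10 (0.0041) and COQ3 at -0.47 ± 0.10 (0.0042). COQ6 missed the threshold without parental array 1 (adjusted p = 0.0534) and COQ3 without parental array 2 (adjusted p = 0.0573). Of 6 other electron donors, CIR1, similar to a subunit of the electron transfer flavoprotein, rose from 1339 and 1359 in the parental arrays to between 1866 and 2030 in homozygotes (log2 change 0.52 ± 0.05, adjusted p = 2.1e-05, and 0.29 in evolved arrays, adjusted p = 0.0216). Among 7 carrier and porin genes 1 rose, the phosphate carrier MIR1 (0.22 ± 0.07, adjusted p = 0.0257), and 1 fell, the porin paralog POR2 (-0.40 ± 0.14, adjusted p = 0.0455). Neither passed without parental array 1 (adjusted p = 0.675 and 0.338). Of the 11 regulators 0 rose and 2 fell (18.2%), close to the 18% of all genes that fell. The 2 were HAP3 (-0.42 ± 0.09, adjusted p = 0.0036) and HAP2 (-0.27 ± 0.08, adjusted p = 0.0241, and a change of -0.16 without parental array 1). Both are DNA-binding subunits of the Hap2/3/4/5 activator. Its activating subunit HAP4 was at 0.19 ± 0.08 (adjusted p = 0.0988). Of 4 tested paralogs and ATPase regulators, STF1, a relative of the inhibitor INH1, rose by 0.34 ± 0.04 (adjusted p = 0.00015) and SHH4, a paralog of SDH4, by 0.40 ± 0.12 (adjusted p = 0.0224, and 0.343 without parental array 2). The 7 subunits encoded by mitochondrial DNA were not analysed here.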

How the data were processed

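Signals are the linear intensity of each probe set as the authors deposited it. MAS5 is named in the submitters' processing notes, whose role and version are not stated there, and the scaling of the arrays was not given in the sources used here. Biotinylated cRNA was hybridised, made from 100 ng of RNA per the labels' protocols. Of 10928 probe sets, 5498 had 1 S. cerevisiae gene in GEO's platform table, with symbols brought up to date through the R64 gene table. Signals were log2 transformed without a pseudocount. A gene was tested if it exceeded the 90th percentile of the S. pombe probe sets of an array on at least 2 arrays, which left 5352 genes. Of the other lists, COX26 and YJL045W had no probe set named for them in the annotation used, and MF(ALPHA)1 and FAR1 were not tested.

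limma 3.58.1 in R 4.3.3 was fitted with 1 mean per group over the 12 arrays, a trend in variance and Benjamini-Hochberg adjustment over all genes tested (two-sided, threshold 0.05). The error after ± is an SE for log2 changes and otherwise an SD. A fold is a ratio of geometric means. The code was checked on simulated data. The number of arrays limits the precision. Parental and evolved replicates are biological ones per their titles, and a homozygote's number only names its strain. The genes and lists were chosen with earlier results of these data known. Signals of every array were given for the NADH dehydrogenases, the isoform pairs, INH1 and up to 2 called genes per complex with the largest change, and up to 3 called genes of each other list were named. SDH1, SDH2, QCR8, QCR9, RIP1, COX13, COX11, HAP4 and the isoform test were added after their values were seen. The joining of complexes III and IV with cytochrome c into 1 set was not named in the plan, which went by complex. Alternatives covered scaling, the background filter, the variance model, the arrays in the fit, the pairing of replicate numbers and leaving out each array.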

Additional observations from a re-analysis of the deposited data

Results flagged for a closer look

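Each of the 42 genes was examined for a homozygote that stood apart from the other 7, by the gap to its nearest neighbour over the range of the 8 arrays, with a critical value of 0.526. There were 2 such genes among the 42, which is close to the rate of about 1 in 20 that chance gives. SDH2 was at 2998 in homozygote 6, against 3212 to 3396 in the other homozygotes, a gap of 0.553 of the range. TIM11 was at 3943 in homozygote 3, against 3214 to 3520 in the others, a gap of 0.555 of the range. Without homozygote 3, TIM11 passed the test as lower in homozygotes than in parental arrays.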

How the results depend on the processing

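For homozygotes against parental arrays the median change over the 42 genes was 0.20 after median centring, with 22 higher, and 0.096 after quantile normalization. With quantile normalization 9 were higher and 1 lower, without a variance trend 10 were higher (12.1% of all genes were, and 18.3% lower), and with array weights per group 3 were, where 325 of all genes were called. Leaving out 1 array gave 6 to 32 higher and 0 to 1 lower, with medians from 0.033 to 0.29. Both ends came from leaving out a parental array. The change of NDE1 ran from -0.23 without parental array 1 to 0.28 without parental array 2. For evolved against parental arrays the median was 0.021 after quantile normalization and -0.029 to 0.19 when 1 array was left out, with 0 to 16 genes higher and 0 to 1 lower. Without parental array 1 this median thus turned negative. All genes called in that comparison, 450 with all arrays, were 184 with array weights, 46 with only these groups, 133 with the evolved arrays as 1 sample, an alternative added after the data were seen, and 118 to 863 without 1 array. With the replicate block they were 154, and 0 of the 42 were called. The parental and evolved differences by number correlated at -0.05 over genes, so the numbers were not taken to pair the arrays. For homozygotes against evolved arrays, array weights called 14 of the 42 and 1549 of all genes, the fit of only these groups called 1, and leaving out 1 array called 0 to 29, the most without homozygote 8. The cause of these shifts was not tested. The filter and floor settings and the mean of probe sets left 16 of the 42 higher in homozygotes than in parental arrays. The fit of only the groups compared left 14. Leaving out homozygotes 5 and 6, also added later, gave 15, of which 13 were among the 16.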

Other observations

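Genes that mark other states of yeast cells were read on the same arrays. Of 17 haploid and mating genes tested, 2 rose and 1 fell in homozygotes against parental arrays (median log2 change -0.03), where 13.2% of all genes rose and 18% fell. STE3, the receptor for a-factor, was at 25.6 and 42.05 in the parental arrays and 39.5 to 62.1 in homozygotes, and STE2, the receptor for alpha-factor, at 129 and 99.4 against 69.8 to 96.8. STE18, a G protein subunit, was at 33.8 and 32.7 against 40.4 to 53.7. Without parental array 1 none of these 3 passed the test (adjusted p = 0.246, 0.331 and 0.0528). Of 14 meiosis and sporulation genes 2 rose and 0 fell (14.3% and 0%). DIT1, of spore wall synthesis, rose from 57.8 and 70.2 to between 125.5 and 168 (log2 change 1.15 ± 0.12, adjusted p = 2.6e-05), and its neighbour in that pathway DIT2 was at 56.5 and 27.4 against 46.9 to 74.8 (0.62 ± 0.22, adjusted p = 0.0472, and 0.09 without parental array 2, adjusted p = 0.767). The part of these genes in the results on respiration was not tested.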
